A study of Mus musculus with 12 samples.

Results

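Genes of smooth muscle cells and myofibroblasts, the contractile cells of the lung, were followed from late gestation into the first days after birth. The 10 genes, *Acta2*, *Actg2*, *Myh11*, *Myl9*, *Cnn1*, *Tagln*, *Lmod1*, *Synpo2*, *Des* and *Myocd*, were chosen by name, all 10 of them were among the 16152 genes with deposited counts, and all 10 passed the filter on low counts that left 15994 genes to test. Whole lungs of C57BL/6 mice were collected at 4 time-points, embryonic days E15.5 and E18.5 and postnatal days P5 and P8, with 3 replicates at each. The labels name no treatment or genetic change, so the groups are described by age only. All 3 lungs of a time-point were litter mates, so that litter and time-point cannot be told apart, and the p-values measure the spread between lungs of a litter. The reads counted on genes lay between 41337443 and 53901957 per library.

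Smooth muscle cells encircle the airways and the pulmonary arteries and veins, while alveolar myofibroblasts sit at the edges of the growing septa. Contraction rests on filaments of smooth muscle actin and myosin, is switched on when the regulatory light chain of myosin is phosphorylated, and is modulated by actin-binding proteins such as calponin. The genes of this apparatus are driven in large part by serum response factor with its coactivator myocardin, which bind and act through a short promoter element called the CArG box.

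Levels are given as CPM, counts of a gene scaled to the mapped reads of the library, which is the authors' normalization, and as the mean ± SD of the 3 replicates. A change was called when the false discovery rate (FDR) of the edgeR quasi-likelihood test, adjusted over all 15994 genes, was under 0.05. In whole lung RNA, fewer cells of a type and less RNA per cell cannot be told apart.

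Before the genes themselves, the libraries were compared on markers of heart muscle, skeletal muscle, thymus and cartilage. Whether this RNA came from within the lung or from beside it was not tested. The 16 heart muscle markers summed to 1358.4 and 1666.7 CPM in E15.5 replicates 1 and 2, against 72.9 CPM in E15.5 replicate 3, 72.9 to 118.6 CPM at E18.5, 177.4 to 382.2 CPM at P5 and 173.4 to 499.0 CPM at P8. The 13 skeletal muscle markers summed to 190.9 CPM in P5 replicate 3 and to 632.0 and 162.3 CPM in P8 replicates 1 and 2, against 5.90 to 57.7 CPM in the other 9 libraries. The markers with the highest CPM in any library were *Actc1*, *Myl4* and *Tnnt2* of heart muscle, at 526.0, 262.5 and 233.1 CPM in E15.5 replicate 2, and *Acta1*, *Mylpf* and *Tnnt3* of skeletal muscle, at 293.1, 90.7 and 65.2 CPM in P8 replicate 1. Thymus markers, led by *Rag1*, *Cd8a* and *Dntt*, summed to 166.9 and 325.7 CPM in P8 replicates 1 and 2 against 0.183 to 17.7 CPM elsewhere. Cartilage markers, led by *Col2a1*, *Col9a2* and *Col9a1*, summed to 75.8 and 119.9 CPM in the same 2 libraries, 8.49 to 22.3 CPM in the other postnatal libraries and 59.6 to 102.7 CPM in the embryonic ones. Of the 16 heart muscle markers 0 to 3 were at 0 in a library, and of the 13 skeletal muscle markers likewise 0 to 3.

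RefSeq promoter windows of 300 bases around the gene start (GRCm38.p6, the build of the files) were on hand for 6 of the 10 genes, *Acta2*, *Cnn1*, *Des*, *Lmod1*, *Synpo2* and *Myl9*. A full CArG box was present in *Myl9* only, and in 1.63% of all 32851 windows. With a single inner G or C allowed, *Acta2* and *Myl9* each held 2 boxes, and 9.98% of all windows held at least 1. The motif reads the same on both strands, so 1 strand was searched. The 4 boxes are printed 5′ to 3′ on the gene's strand, with the box in capitals and 10 bases to either side, because they are the only such elements found in the members' windows.
Acta2, chr19:34255438-34255467, minus strand, 84 bases before the start: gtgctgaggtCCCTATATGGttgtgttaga
Acta2, chr19:34255388-34255417, minus strand, 34 bases before the start: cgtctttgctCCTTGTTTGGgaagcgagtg
Myl9, chr2:156775293-156775322, plus strand, 161 bases before the start: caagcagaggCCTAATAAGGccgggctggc
Myl9, chr2:156775355-156775384, plus strand, 99 bases before the start: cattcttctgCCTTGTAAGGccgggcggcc
The first *Myl9* box is the full one, and each of the other 3 has 1 inner G or C. The letters are a description of the sequence and do not show binding. The start is the one in RefSeq. In Gencode M21, both *Acta2* boxes lie within an exon of *Acta2*.

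The smooth muscle actins come first, since they form the thin filaments. *Acta2* (chr19:34241090-34255590 in mm10) encodes alpha smooth muscle actin, the most used marker of smooth muscle and of myofibroblasts. It was at 468.9, 524.2 and 452.1 CPM in the 3 E15.5 libraries, at 520.4, 451.8 and 568.3 CPM at E18.5, at 427.3, 491.2 and 453.8 CPM at P5 and at 444.2, 436.6 and 484.6 CPM at P8. The 4 groups overlapped throughout, and the highest library lay at E18.5. No comparison passed the test, and the intervals were narrow. From E18.5 to P5 the fold was 0.945 with a 95% interval from 0.829 to 1.08 (edgeR FDR = 0.417), and from E18.5 to P8 it was 0.930 with an interval from 0.816 to 1.06 (edgeR FDR = 0.293).

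*Actg2* (chr6:83512905-83536265), the gamma actin found mostly in the muscle of hollow organs, also passed no comparison. Its 12 libraries ranged from 48.7 CPM in E18.5 replicate 2 to 69.6 CPM in E18.5 replicate 3. The means were 61.7 ± 3.30, 61.5 ± 11.2, 60.8 ± 8.27 and 63.3 ± 6.04 CPM in order of age (SD, n = 3). Its fold from E18.5 to P5 was 1.05, with an interval from 0.863 to 1.27 (edgeR FDR = 0.651). Both the lowest and the highest value came from the same time-point, so the spread within a litter was as wide as that over the whole period.

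Both myosin genes were called higher at P5 than at E18.5. *Myh11* (chr16:14194535-14291372) encodes the heavy chain of smooth muscle myosin and is the marker most restricted to differentiated smooth muscle. Its libraries were at 90.6, 60.0 and 107.9 CPM at E15.5, at 130.5, 104.2 and 103.2 CPM at E18.5, at 137.8, 136.5 and 144.2 CPM at P5 and at 126.3, 131.6 and 143.5 CPM at P8. E15.5 replicate 2 was the lowest of all, and the P5 libraries lay above those of E18.5. From E18.5 to P5 *Myh11* rose by 0.39 on the log2 scale (SE 0.17, edgeR FDR = 0.0484), close to the threshold. This call was lost when library size alone replaced TMM (edgeR FDR = 0.0892) and in 9 of the 12 fits that left out 1 library, with edgeR FDR values from 0.0594 to 0.147. These 9 left out E15.5 replicate 1, E18.5 replicates 2 or 3, or any library of P5 or P8, and the highest FDR came without E18.5 replicate 3. It was also lost with no filter on low counts (edgeR FDR = 0.0504). With P5 replicate 3 and P8 replicates 1 and 2 left out together, which kept a single P8 library, the change to P5 was 0.38. From E18.5 to P8 the change was 0.32 and did not pass the test (edgeR FDR = 0.103), with libraries that overlapped. This change was called with the 2 time-points fitted alone (edgeR FDR = 0.0251) and with DESeq2 (Wald test FDR = 0.0427). It was also called without E15.5 replicate 2 (edgeR FDR = 0.0127), E15.5 replicate 3 (edgeR FDR = 0.0482) or E18.5 replicate 1 (edgeR FDR = 0.0438). With E15.5 replicates 1 and 2 left out together, the changes of *Myh11* to P5 and to P8 stayed at 0.39 and 0.32.

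*Myl9* (chr2:156775420-156781658) encodes the regulatory light chain on which the contraction signal acts. Its libraries were at 182.7, 215.3 and 108.8 CPM at E15.5, at 121.3, 105.3 and 132.5 CPM at E18.5, at 162.9, 179.5 and 161.8 CPM at P5 and at 163.5, 166.4 and 179.0 CPM at P8. The 2 highest values were those of E15.5 replicates 1 and 2, the libraries with high heart muscle markers, and E15.5 replicate 3 lay within the range of E18.5. From E15.5 to E18.5 the log2 fold change was -0.49 (edgeR FDR = 0.0701). It was -0.72 without E15.5 replicate 3 (edgeR FDR = 0.00124). With E15.5 replicates 1 and 2 left out, which kept a single E15.5 library, it turned to 0.13. All 6 postnatal libraries lay above all 3 at E18.5. *Myl9* rose by 0.58 to P5 (SE 0.18, edgeR FDR = 0.0119) and by 0.57 to P8 (SE 0.18, edgeR FDR = 0.0118), each a fold of 1.49. Without E18.5 replicate 2 the edgeR FDR became 0.0516 and 0.0515. With P5 replicate 3 and P8 replicates 1 and 2 left out together, the change to P8 was 0.63. That alternative was chosen after seeing the data and kept a single P8 library.

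**Figure D1:**
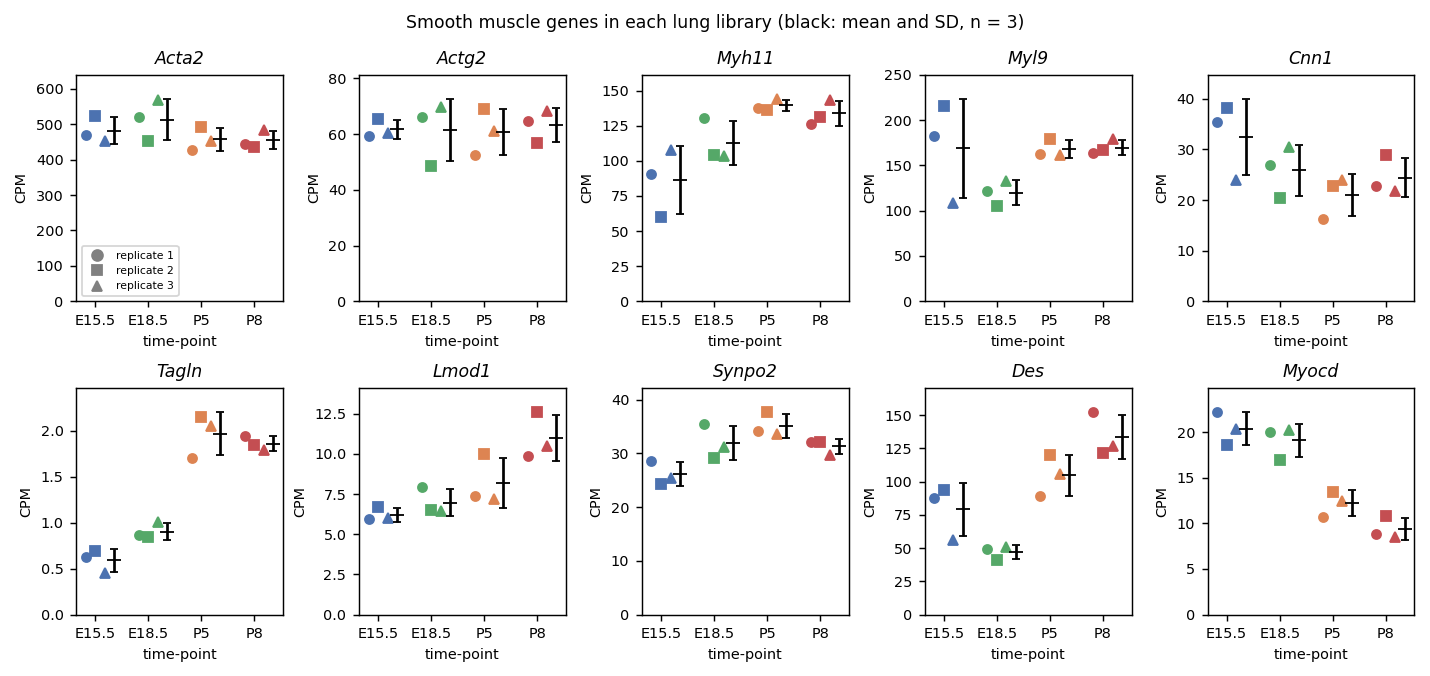
CPM (linear axes from 0) of the 10 smooth muscle genes in each of the 12 lung libraries by time-point, with 1 marker shape per replicate and the mean and SD (n = 3) in black. *Acta2* and *Actg2* pass no comparison, *Tagln* and *Des* are higher at P5 than at E18.5, and *Myocd* is lower.

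Among the actin-binding proteins of the thin filament, *Cnn1* did not pass the test and *Tagln* did. *Cnn1* (chr9:22099216-22109630) encodes calponin 1, which restrains the actin-activated ATPase of myosin. It was at 35.5, 38.1 and 24 CPM at E15.5, at 27.0, 20.5 and 30.4 CPM at E18.5, at 16.3, 22.7 and 24 CPM at P5 and at 22.7, 28.8 and 21.7 CPM at P8. The groups overlapped, with the 2 highest values again in E15.5 replicates 1 and 2. Its fold from E18.5 to P5 was 0.857, with a 95% interval from 0.643 to 1.14 (edgeR FDR = 0.310).

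*Tagln* (chr9:45929619-45936058, minus strand) encodes transgelin, usually one of the most abundant transcripts of smooth muscle, yet it had the lowest values of the 10 genes in these tables, in CPM and per kilobase of exon. It was at 0.629, 0.688 and 0.452 CPM at E15.5, at 0.862, 0.842 and 1.01 CPM at E18.5, at 1.70, 2.15 and 2.05 CPM at P5 and at 1.95, 1.85 and 1.79 CPM at P8. Behind these values stood 23 to 125 reads per library. The 6 embryonic and the 6 postnatal libraries did not overlap. *Tagln* rose by 1.20 on the log2 scale from E18.5 to P5 (SE 0.23, edgeR FDR = 0.000502) and by 1.11 to P8 (SE 0.23, edgeR FDR = 0.000865). The gene passed the filter on low counts only through the later libraries, so that a difference was built into its being tested. In Gencode M21, 1349 of its 1988 exonic bases also belong to exons of other genes on the opposite strand, 1241 of them to the antisense gene *Gm48529* and 108 to *Pcsk7*. Reads over shared bases are set aside as ambiguous when counting takes no account of strand, and the strand setting is not given in the sources used here. The level of *Tagln* is therefore uncertain, and its change refers to the reads that were assigned to it. *Gm48529* was itself at 0.0983 to 0.702 CPM. Of the other 9 genes only *Des* shared exonic bases, 220 of 3754, with a gene listed at 0 in every library.

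*Lmod1* and *Synpo2* are further actin-binding genes of muscle. *Lmod1* (chr1:135324807-135368065) encodes leiomodin 1, which nucleates actin filaments in smooth muscle. It was at 5.96, 6.70 and 5.98 CPM at E15.5, at 7.92, 6.53 and 6.43 CPM at E18.5, at 7.37, 10 and 7.22 CPM at P5 and at 9.89, 12.6 and 10.5 CPM at P8. Neighbouring time-points overlapped, but all P8 libraries lay above all E18.5 libraries. Its rise of 0.73 from E18.5 to P8 was called (SE 0.15, edgeR FDR = 0.000713), and neither of the steps it spans was, at 0.32 to P5 (edgeR FDR = 0.0714) and 0.41 from P5 to P8 (edgeR FDR = 0.0735). Each step was called without 1 library, that to P5 without E18.5 replicate 1 (edgeR FDR = 0.0305) or P5 replicate 3 (edgeR FDR = 0.0388), and that to P8 without P5 replicate 2 (edgeR FDR = 0.0422).

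*Synpo2* (chr3:123076519-123236149) encodes synaptopodin 2, or myopodin, an actin-bundling protein of muscle. In order of age its means were 26.1 ± 2.23, 32.0 ± 3.20, 35.2 ± 2.23 and 31.3 ± 1.40 CPM (SD, n = 3). It was at 35.5, 29.2 and 31.2 CPM in the E18.5 libraries and at 34.2, 37.7 and 33.6 CPM at P5. *Synpo2* rose by 0.30 before birth (SE 0.09, edgeR FDR = 0.0327) and by 0.22 from E18.5 to P5 (SE 0.09, edgeR FDR = 0.0388), where the libraries of both time-points overlapped. Both calls depended on single libraries. The first was lost without E18.5 replicate 1 (0.21, edgeR FDR = 0.124), E15.5 replicate 2 (edgeR FDR = 0.109) or E15.5 replicate 3 (edgeR FDR = 0.0716). The second was lost without E18.5 replicate 2 (0.16, edgeR FDR = 0.152) or 3, P5 replicate 1 or 2, or P8 replicate 1 or 2, with edgeR FDR values from 0.0565 to 0.152. Library size in place of TMM also ended the second call (edgeR FDR = 0.128).

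*Des* (chr1:75360329-75368579) encodes desmin, the intermediate filament protein of smooth, heart and skeletal muscle alike. It was at 87.6, 93.4 and 56.0 CPM in the E15.5 libraries, at 49.1, 40.8 and 50.9 CPM at E18.5, at 88.8, 119.7 and 105.5 CPM at P5 and at 152.2, 121.1 and 127.1 CPM at P8. E18.5 was the low point, and every postnatal library lay above every library of E18.5. *Des* rose by 1.24 from E18.5 to P5 (SE 0.18, fold 2.36 with a 95% interval from 1.81 to 3.08, edgeR FDR = 3.93e-05) and by 1.58 to P8 (SE 0.18, fold 2.99, edgeR FDR = 4.55e-06). The step from P5 to P8 was 0.34 and did not pass the test (edgeR FDR = 0.185), although the libraries of the 2 time-points did not overlap.

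Since desmin is shared with striated muscle, its values were set beside the marker sums of the same libraries. Before birth the fall of 0.74 from E15.5 to E18.5 (SE 0.17, edgeR FDR = 0.0118) was -0.26 with E15.5 replicates 1 and 2 left out (edgeR FDR = 0.430), and -0.65 without E18.5 replicate 2 (edgeR FDR = 0.0525). In the first of these fits the single remaining E15.5 library was assumed to vary like the other groups. After birth the highest *Des* value, in P8 replicate 1, stood in the library with the highest skeletal muscle sum. With P5 replicate 3 and P8 replicates 1 and 2 left out together, the rise was 1.24 to P5 and 1.49 to P8. That fit kept a single P8 library, assumed to vary like the other groups, so only its changes are given. In P8 replicate 3, with skeletal muscle markers at 8.88 CPM in sum and heart muscle markers at 173.4 CPM, *Des* stood at 127.1 CPM. The heart muscle sums were higher in every postnatal library than in every E18.5 library, and their part in the rise of *Des* and *Myl9* was not tested.

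**Figure D2:**
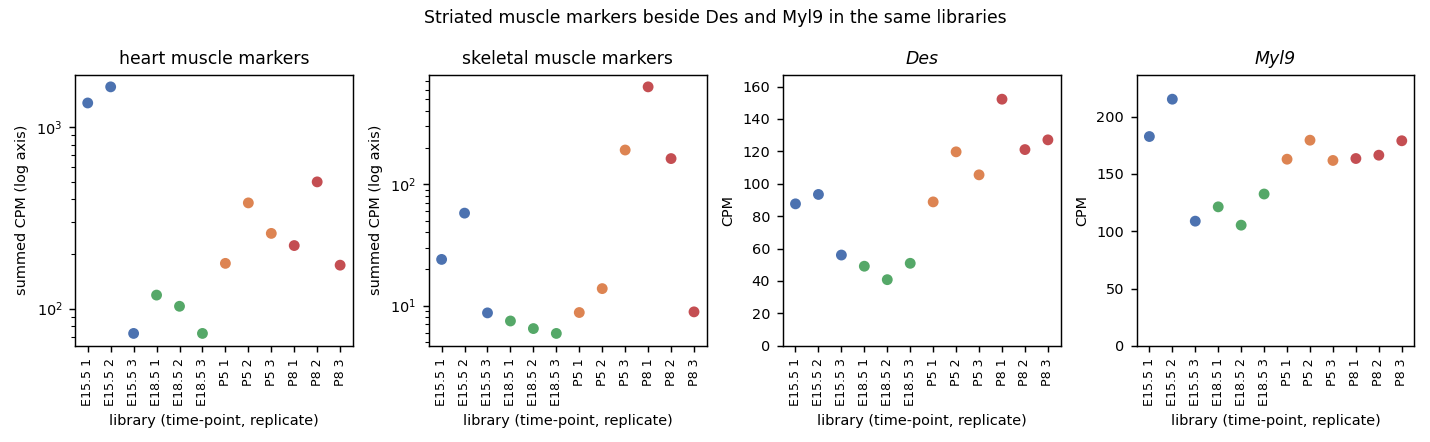
Summed CPM of the heart and skeletal muscle marker lists (log axes) and CPM of *Des* and *Myl9* (linear axes from 0) in each of the 12 libraries, coloured by time-point. E15.5 replicates 1 and 2 stand high for heart muscle markers and *Myl9*, and above the other embryonic libraries for *Des*, while P5 replicate 3 and P8 replicates 1 and 2 stand high for skeletal muscle markers and have *Myl9* values of 161.8 to 166.4 CPM.

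*Myocd* (chr11:65176561-65269989), the gene of the coactivator myocardin, was the only one of the 10 called lower from E18.5 to P5. It was at 22.2, 18.6 and 20.4 CPM at E15.5, at 20, 17 and 20.3 CPM at E18.5, at 10.7, 13.5 and 12.5 CPM at P5 and at 8.89, 10.8 and 8.56 CPM at P8. All 6 embryonic libraries lay above all 6 postnatal ones. *Myocd* fell by 0.56 on the log2 scale from E18.5 to P5 (SE 0.12, edgeR FDR = 0.000864) and by 0.95 from E18.5 to P8 (SE 0.12, edgeR FDR = 1.07e-05), to a fold of 0.516. The step from P5 to P8 was -0.39 (edgeR FDR = 0.0373), with libraries that overlapped slightly. This call was lost with library size only (edgeR FDR = 0.0515), with the 2 time-points fitted alone (edgeR FDR = 0.0554), with the replicate number as a block (edgeR FDR = 0.0609) and without P5 replicate 2 (edgeR FDR = 0.116), P5 replicate 3 (edgeR FDR = 0.0869), P8 replicate 1 (edgeR FDR = 0.0937) or P8 replicate 3 (edgeR FDR = 0.0725). With P5 replicate 3 and P8 replicates 1 and 2 left out together, which kept a single P8 library, it was -0.54.

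Counted together, 6 of the 10 genes passed the test from E18.5 to P5, against 71.1% of all genes tested. *Tagln*, whose difference was built into its being tested, is in this count and in those for E18.5 to P8, for a log2 fold change above 1 and for libraries that did not overlap. Of the 6, 5 were higher (35.4% of all genes) and 1 was lower (35.7%). The median change of the 10 was 0.27 and the median size 0.36 on the log2 scale, against 0.00 and 0.55 over all genes. From E18.5 to P8, 5 of 10 passed against 73.7% of all genes, 4 of them higher (36.5%) and 1 lower (37.2%). From E15.5 to E18.5, 2 of 10 passed against 21.5%, with 1 higher (11.6%) and 1 lower (9.87%). Between P5 and P8 a single gene of 10 passed against 18%, and it was lower, where 8.21% of all genes were lower and 9.75% higher. These shares are read as no result about the 10 genes. *Tagln* and *Des* were the only ones of the 10 called that also exceeded a log2 fold change of 1, in both comparisons with E18.5, where 26.8% of all genes did so at P5 and 29.0% at P8. In the other comparisons no member did, against 3.04% before birth and 2.96% from P5 to P8. The libraries of E18.5 and P5 did not overlap for 5 of the 10 genes, where 77.0% of all genes did not overlap. It was 3 of 10 before birth against 38.1%, 2 of 10 between P5 and P8 against 37.0%, and 5 of 10 between E18.5 and P8 against 75.7%. Over the 6 embryonic and 6 postnatal libraries this held for 2 of 10, *Tagln* and *Myocd*, against 59.1% of all genes.

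**Figure D3:**
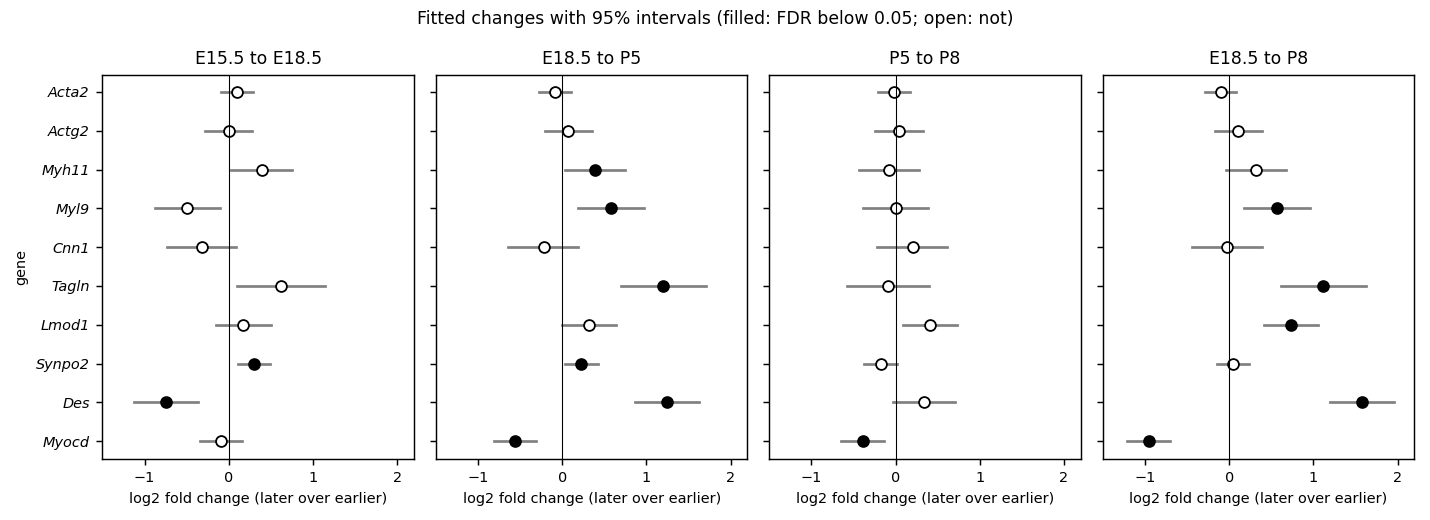
Fitted log2 fold changes (later over earlier time-point) of the 10 genes in the 4 comparisons, with 95% intervals as bars and calls at FDR under 0.05 as filled points. *Des* and *Tagln* lie to the right from E18.5 to P5 and to P8, *Myocd* lies to the left in both, and *Acta2*, *Actg2* and *Cnn1* are open in all 4 panels.

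Levels of the 10 genes were ranked per kilobase of exon (CPM divided by exonic length in Gencode M21). *Acta2* was the highest at every time-point, from 207 to 234 on this scale, and *Myl9* the second, from 103 to 146. *Actg2* was the third, near 40 throughout, although at P8 its libraries overlapped those of *Des*. Below these, the order moved with age. At E18.5 *Myh11* at 14.8, *Des* at 12.5 and *Cnn1* at 9.48 followed each other, and neighbours among them overlapped. At P8 the same genes stood apart, with *Des* at 35.6, *Myh11* at 17.6 and *Cnn1* at 8.90 per kilobase. *Myocd* went from the seventh place before birth, at 3.18 and 2.97, to the ninth after it, at 1.90 and 1.46. Its libraries overlapped those of *Synpo2* at E18.5 and of *Lmod1* at P5. *Tagln* was the last throughout, with the limit given above. In CPM, the 10 genes summed to between 825.0 and 1082.0 in the 12 libraries, and *Acta2* made up 47.7% to 56.1% of that sum before birth and 43.3% to 45.5% after it.

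Splicing of contractile genes was read from the same libraries. The percent spliced in (PSI) is the share of transcripts that include an exon, and the percent retained is the same for an intron. The study selected the 10 events described here as changed in these libraries, so they are given without a test. In *Myh11*, 1 alternative exon was included at 56.4%, 35.5% and 36.8% in the E15.5 libraries and at 53.0%, 37.1% and 31.2% at E18.5. At P5 it was at 0%, 8.93% and 6.46%, and at P8 at 4.39%, 4.05% and 0%. Every embryonic library lay above every postnatal one, and the exon went from a mean of 40.4% at E18.5 to 5.13% at P5 while the gene was called higher at P5. The 2 libraries at 0% had 128 and 122 reads, which allow a PSI of up to 2.34% and 2.46%. The event had 49 to 172 corrected reads per library, and which exon of the gene it is was not identified here.

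Of the genes that work beside the members, *Tpm1*, *Actn1*, *Nexn* and *Mylk* held the other 9 events. *Tpm1* encodes a tropomyosin that lies along the actin filament, and its 4 exons, called A to D in the order of their event numbers, form pairs with opposite values. Exon A was at 94.8 ± 0.710% at E18.5 and 79.2 ± 3.46% at P8, and exon B at 5.33 ± 0.376% and 21.9 ± 3.11%. Exon C was at 35.8 ± 0.191% at E18.5 and 18.6 ± 2.57% at P5, and exon D at 66.6 ± 1.04% and 83.3 ± 2.68%. At E15.5, replicates 1 and 2 had exon C at 26.8% and 24.2% and replicate 3 at 42.0%, and the first 2 are the libraries with high heart muscle markers, whose part in this split was not tested. *Actn1*, the gene of a cross-linker of actin filaments, went from 78.6 ± 1.69% to 53.0 ± 1.73% for its exon A and from 26.2 ± 1.15% to 51.9 ± 4.31% for its exon B between E18.5 and P5. In *Nexn*, the gene of the actin-binding protein nexilin, an exon was included at 56.6 ± 5.78%, 38.6 ± 3.04%, 65.3 ± 2.61% and 64.1 ± 5.71% in order of age, and an intron was retained at 56.6 ± 5.03% at E18.5 and 36.8 ± 4.12% at P5. *Mylk* encodes the kinase that phosphorylates the light chain of myosin, and 1 of its introns was retained at 37.2%, 34.2% and 30.4% at E15.5, at 30.4%, 22.9% and 31.6% at E18.5, at 8.85%, 12.6% and 14.3% at P5 and at 10.1%, 9.99% and 11.4% at P8. The embryonic and postnatal libraries of this intron did not overlap. Between E18.5 and P5 the level of *Mylk* did not pass the test (fold 1.13 with a 95% interval from 0.979 to 1.31, edgeR FDR = 0.113). Nor did that of *Actn1*, at -0.18 on the log2 scale (edgeR FDR = 0.065). In that comparison *Tpm1* was called higher, by 0.47 (edgeR FDR = 0.00129), and *Nexn* lower, by 0.69 (edgeR FDR = 4.77e-05).

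**Figure D4:**
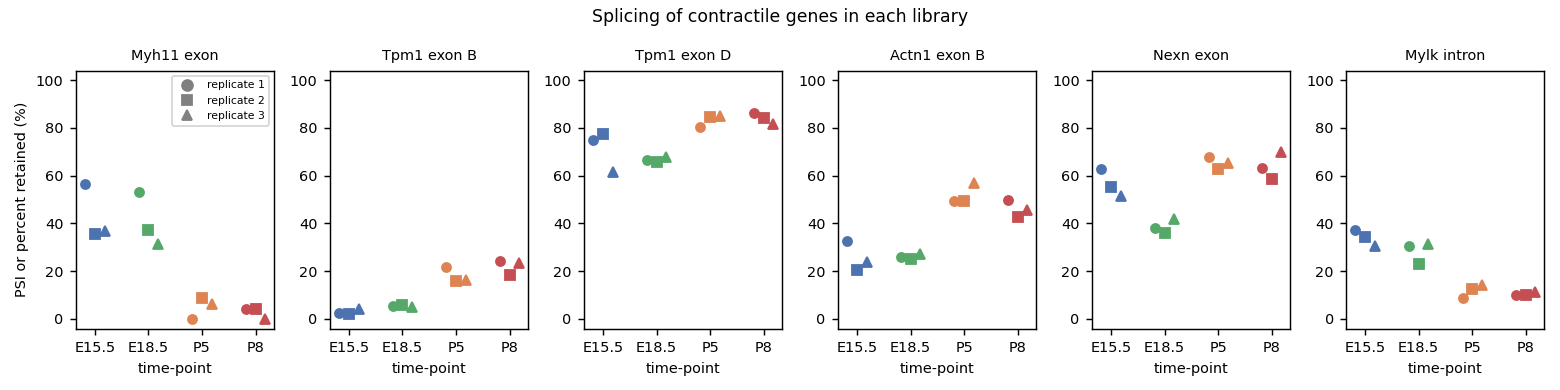
Percent spliced in of 5 exons and percent retained of 1 intron in contractile genes in each of the 12 libraries, by time-point, with 1 marker shape per replicate. The *Myh11* exon is at 31.2% or more in every embryonic library and at 8.93% or less in every postnatal one.

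A list of 40 further genes of the contractile and adhesion apparatus, chosen by name, was counted in the same fit. This list and those that follow were chosen with earlier results of these data known. At P5 relative to E18.5, 28 of 40 passed the test, a share near the 71.1% of all genes. Of the 28, 23 were higher (35.4% of all genes) and 5 lower (35.7%). The median change was 0.49, against 0.0 over all genes. The 4 largest among those called were rises. *Pdlim3*, an adaptor at actin anchoring sites, was at 19, 17.9 and 16.3 CPM at E18.5 and at 107.5, 128.5 and 121.8 CPM in the P5 libraries, and rose by 2.84 (SE 0.14, edgeR FDR = 5.98e-09). *Fhl1*, which encodes a LIM-domain protein of muscle, rose by 2.1 (SE 0.12, edgeR FDR = 1.73e-08), from 371.3 to 1501.3 CPM on average. *Itga7*, a laminin receptor of muscle, rose by 1.58 (SE 0.17, edgeR FDR = 3.16e-06), and *Csrp1*, a LIM-domain partner of alpha-actinin, by 1.42 (SE 0.07, edgeR FDR = 6.44e-09). P5 replicates 1 and 2 lay above all E18.5 libraries for these 4 genes as P5 replicate 3 did, with *Fhl1* at 1452.0, 1476.2 and 1575.6 CPM. Skeletal muscle markers summed to 8.77 and 13.8 CPM in P5 replicates 1 and 2. Heart muscle markers summed to 177.4 to 382.2 CPM at P5 against 72.9 to 118.6 CPM at E18.5, and their part in these rises was not tested. *Flna*, the gene of filamin A, had the highest CPM of the list averaged over the 12 libraries, though *Fhl1* stood above it at P5 and P8 and *Csrp1* at P5. It was at 899.0 ± 24.1 CPM at E18.5 and 975.4 ± 22.8 at P5. In the other comparisons 13 of 40 passed from E15.5 to E18.5 against 21.5% of all genes, 28 between E18.5 and P8 against 73.7%, and 11 between P5 and P8 against 18%.

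Of 20 regulators of smooth muscle genes, 10 passed between E18.5 and P5, 5 of them higher and 5 lower, against 71.1% of all genes (35.4% higher and 35.7% lower), with a median change of 0.07. *Klf4*, a zinc-finger factor known to oppose myocardin in smooth muscle cells, rose by 2.34 (SE 0.15, edgeR FDR = 4.55e-08), from 14.9, 17.8 and 13.7 CPM to 74.8, 76.7 and 70.4 CPM. *Tgfb1*, a growth factor that induces smooth muscle actin, rose by 1.13 (edgeR FDR = 2.16e-08), and its receptor gene *Tgfbr2*, with the highest mean CPM of the list, by 0.99 (edgeR FDR = 4.11e-08). *Elk4*, an ETS factor that also binds serum response factor, rose by 0.69 (edgeR FDR = 4.09e-05), while *Elk1* of the same list fell by 0.25 (edgeR FDR = 0.031). *Srf*, the gene of serum response factor itself, was named after its values were seen. It was at 170.7, 138.7 and 160.0 CPM at E18.5 and at 96.6, 99.2 and 109.7 CPM at P5, a fall of 0.53 on the log2 scale (SE 0.09, edgeR FDR = 0.000217). *Srf* and *Myocd* both fell from E18.5 to P5, while *Mkl1* and *Mkl2*, the related coactivators, had log2 fold changes of 0.10 and 0.04 that did not pass the test (edgeR FDR = 0.464 and 0.762). In the same list and comparison, *Smad3* fell by 0.30 (edgeR FDR = 0.00297), *Gata6* by 0.28 (edgeR FDR = 0.000618) and *Foxo4* by 0.20 (edgeR FDR = 0.0114). *Tgfbr1*, beside *Tgfb1* and *Tgfbr2*, had a log2 fold change of -0.08 that did not pass the test (edgeR FDR = 0.253). *Elk1*, *Mkl1*, *Mkl2*, *Smad3*, *Gata6*, *Foxo4* and *Tgfbr1* were likewise named after their values were seen.

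Genes of 2 neighbouring cell types were read in the same way. All 10 pericyte genes passed between E18.5 and P5, 7 of them higher and 3 lower, against 71.1% of all genes (35.4% higher and 35.7% lower). *Trpc6*, a cation channel, rose by 2.54 (edgeR FDR = 8.54e-09), *Higd1b* by 2.26 (edgeR FDR = 2.85e-06), *Cox4i2*, a cytochrome oxidase subunit, by 1.54 (edgeR FDR = 1.60e-08) and *Mcam*, an adhesion molecule shared with endothelium, by 1.38 (edgeR FDR = 4.60e-08). *Kcnj8* and *Abcc9*, which form a potassium channel of pericytes, fell by 0.81 and 1.30 (edgeR FDR = 9.48e-05 and 2.31e-06), and *Cspg4* by 0.36 (edgeR FDR = 0.0164). The 3 that fell were named after their values were seen. Of the 8 genes of alveolar myofibroblasts, 6 passed, all higher, with a median change of 1.03. This share of 75.0% is near the 71.1% of all genes, of which 35.4% were called higher and 35.7% lower. *Aspn*, a small proteoglycan of the matrix, rose by 2.75 (edgeR FDR = 1.61e-08), from 35.4, 38.1 and 26.8 CPM to 179.0, 226.0 and 234.4 CPM. *Tgfbi* rose by 1.60 (edgeR FDR = 2.86e-07), *Stc1* by 1.25 (edgeR FDR = 9.24e-05) and *Wnt5a* by 1.24 (edgeR FDR = 2.98e-07). The other 2, also named after their values were seen, had lower values that did not pass the test, -0.19 for *Pdgfra*, a growth factor receptor of these cells (edgeR FDR = 0.0812), and -0.26 for *Lgr6* (edgeR FDR = 0.180), with libraries that did not overlap. From E18.5 to P8 *Pdgfra* fell by 0.68 (edgeR FDR = 3e-05). *Acta2*, which these cells share with smooth muscle, had the fold of 0.945 given above.

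**Figure D5:**
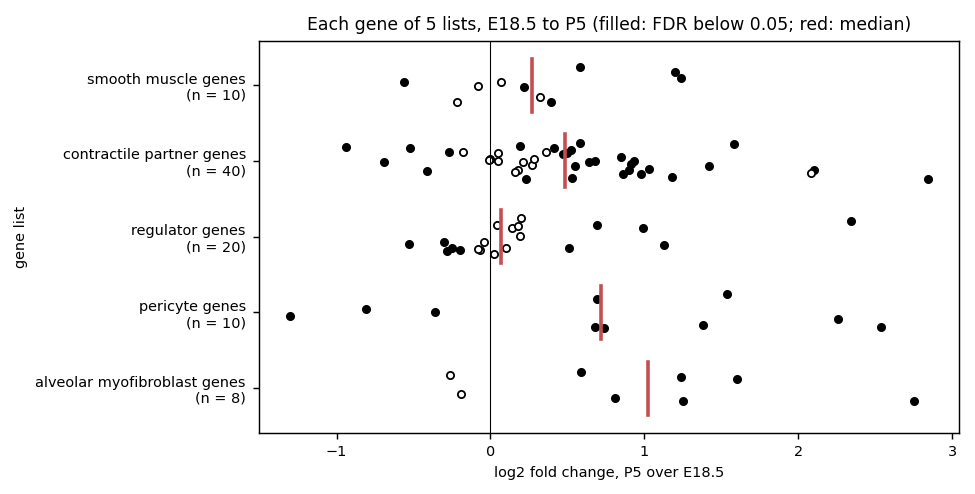
Fitted log2 change, P5 over E18.5 (horizontal axis), of each tested gene of 5 lists, filled where FDR was under 0.05, with the median of each list in red. The medians are 0.27 for the 10 smooth muscle genes, 0.49 for the 40 contractile partner genes, 0.07 for the 20 regulators, 0.72 for the 10 pericyte genes and 1.03 for the 8 alveolar myofibroblast genes.

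Over the 12 libraries, which share the 4 time-points, Pearson's r on log2(CPM + 1) was 0.699 between *Acta2* and *Actg2*, 0.802 between *Des* and *Myl9*, -0.862 between *Tagln* and *Myocd* and -0.750 between *Des* and *Myocd*. For deviations from the time-point means the same 4 values were 0.911, 0.845, 0.397 and 0.233, so that both negative ones changed sign. No rule set the choice of these 4 pairs, and other pairs were as strong as some of them. For *Myh11* and *Synpo2* r was 0.774 (0.401 for deviations), and for *Lmod1* and *Myocd* -0.772 (0.517 for deviations). At E15.5, replicates 1 and 2 lay above replicate 3 for both *Des* and *Myl9*, and the part of heart muscle in their r was not tested. The 5 genes outside the lists whose levels were most like the mean standardized level of the 10 were *4933440N22Rik* (r = 0.813), *Dctn6* (0.795), *Tmem35b* (0.786), *Pcdhb5* (0.784) and *Hps3* (0.777) over the 12 libraries. They were the highest of all tested genes outside the lists, and *4933440N22Rik* had means of only 0.696 to 1.02 CPM. The mean level joins members that moved in opposite directions, such as *Tagln* and *Myocd*, so it stands for no shared course of the 10. All the r values are descriptions of 12 points in 4 litters.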

How the data were processed

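RNA from whole lungs was sequenced by the authors as 101-nt paired-end reads from TruSeq libraries. The authors aligned reads to mm10 with TopHat2 2.1.1 and Bowtie2 2.3.4, and deposited raw counts per Gencode gene from HTSeq 0.10.0, with ambiguous reads removed. The deposited CPM are those counts over all mapped reads. The deposited percent values (PSI) and their reads come from VAST-TOOLS.

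Counts were tested here with edgeR 4.0.16 (R 4.3.3): TMM, quasi-likelihood fit of all 12 libraries, genes reaching 1 CPM in 3 or more libraries, Benjamini-Hochberg FDR under 0.05 over 15994 genes. The step was tested on simulated data, for E18.5 to P5. Of 50 genes changed by 0.5 on the log2 scale 25 were called, and of 50 changed by 1, 38. At 1.5 and 2 it was 42 and 46 of 50, and 8 unchanged genes were called. Only these genes were changed among the 15994 simulated, while 71.1% of genes were called in the real comparison. The FDR adjustment depends on that share, so these rates do not carry over to the real comparison. A missing call does not show the absence of a small change. Groups came from the sample labels. Alternatives were other size factors, no filter, the time-points compared alone, a replicate block, DESeq2 1.42.0 and leaving out libraries. The members and lists were chosen with earlier results of these data known. Named list genes were the 4 called with the largest change from E18.5 to P5, the one with the highest mean CPM and those with a splicing event, and any others are said to be named after their values were seen. Intervals and limits cover counting error only where they rest on reads.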

Additional observations from a re-analysis of the deposited data

How the results depend on the processing

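In the comparisons where 7 of the 10 genes were called, their direction was the same under every alternative run. *Myl9* from E15.5 to E18.5, not called at -0.49, was called at -0.48 with DESeq2 and at -0.72 without E15.5 replicate 3, and was 0.13 with E15.5 replicates 1 and 2 left out. *Acta2*, *Actg2* and *Cnn1* were called in no comparison under any of them, and the rises of *Tagln* and *Des* from E18.5 to P5 and to P8, the rise of *Lmod1* from E18.5 to P8 and the fall of *Myocd* from E18.5 to P5 and to P8 were called under all of them. Of 800 refitted changes, 748 stayed on their side of the threshold, 37 lost the call and 15 gained it. Where a count moved, the cause was not tested, apart from the smaller number of libraries or the added fold limit. Counts under the refits stand without the share of all genes called in the same refit. A moved count is therefore read as no result about a list. Replicates of a time-point share a litter, *Tagln* rests on few reads and passed the filter through its postnatal libraries, so its calls are conditioned on the outcome, and its overlap with an antisense gene limits its level.

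With a log2 fold change above 1 required as well, the counts from E15.5 to E18.5, E18.5 to P5, P5 to P8 and E18.5 to P8 were 0, 2, 0 and 2 for the 10 smooth muscle genes, 1, 6, 0 and 9 for the contractile partners, 1, 2, 1 and 3 for the regulators, 2, 5, 0 and 5 for the pericyte genes and 1, 4, 0 and 3 for the alveolar myofibroblast genes. Of all genes tested, 3.04%, 26.8%, 2.96% and 29.0% passed with that limit, in the same order. With E15.5 replicates 1 and 2 left out, a single E15.5 library remained. With P5 replicate 3 and P8 replicates 1 and 2 left out, a single P8 library remained. The counts under these fits are not given, since they rest on a spread assumed from the other groups. With the compared time-points fitted alone, 1 smooth muscle gene and 5 regulators passed from E15.5 to E18.5, and 0 smooth muscle genes and 3 pericyte genes from P5 to P8. With DESeq2, 4 smooth muscle genes passed from E15.5 to E18.5, and 2 smooth muscle genes and 2 pericyte genes from P5 to P8. With library size only, 0 smooth muscle genes passed from P5 to P8. For the time-points fitted alone, DESeq2 and library size, the share of all genes called is not given. No result about a list is read from those counts.

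Leaving out 1 library at a time gave 1 to 3 smooth muscle genes from E15.5 to E18.5, 3 to 7 from E18.5 to P5 (the lowest without E18.5 replicate 2), 0 to 1 between P5 and P8 and 4 to 6 from E18.5 to P8. It gave 8 to 18 contractile partners and 3 to 9 regulators from E15.5 to E18.5. From P5 to P8 it gave 2 to 15 contractile partners, 3 to 8 regulators, 0 to 3 pericyte genes and 1 to 6 alveolar myofibroblast genes. The share of all genes called in each of these refits is not given, so no result about a list is read from the counts.

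With the replicate number as a block, 0 smooth muscle genes passed from P5 to P8 in place of 1, again without the share of all genes in that refit. The numbers did not pair the samples: from E18.5 to P5 the deviations of same-numbered libraries correlated at -0.131, 0.0334 and -0.109, and not every library correlated best with its own number.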
